A study of Rattus norvegicus with 12 samples.

Results

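Prostaglandin E synthase (Ptges), which makes prostaglandin E2, rose 9.37-fold in wild-type rat lung at day 4 of SuHx, and prostacyclin synthase (Ptgis) rose 1.47-fold. The thromboxane synthase gene Tbxas1, the leukotriene genes Alox5 and Alox5ap and the prostacyclin receptor gene Ptgir were not called in any of the lung comparisons. These genes belong to a set of 10 that act in the prostacyclin, thromboxane and leukotriene pathways: Ptgs1, Ptgs2, Ptgis, Ptges, Ptgds, Tbxas1, Ptgir, Tbxa2r, Alox5 and Alox5ap. They were chosen by symbol for their known roles, and all 10 were found among the 19230 rows of the deposited table. Tbxa2r shares a row with the gene Cactin, so a value of that row cannot be given to 1 of both genes. All 10 passed the filter on low values, a mean signal of at least 1.

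Prostanoids and leukotrienes are short-lived lipid mediators made from arachidonic acid, which phospholipases release from membranes. The cyclooxygenases encoded by Ptgs1 and Ptgs2 turn it into prostaglandin H2, and a set of terminal synthases turns that into prostacyclin, prostaglandin E2, prostaglandin D2 or thromboxane A2. Prostacyclin widens pulmonary vessels and restrains platelets, whereas thromboxane A2 constricts vessels and activates platelets, and drugs that act on the prostacyclin receptor are used in pulmonary arterial hypertension. On a separate branch, 5-lipoxygenase and its activating protein start the synthesis of leukotrienes, largely in leukocytes.

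The promoters of the genes with the largest differences are shown because their letters can be set beside the values below. Sequences are from RefSeq, build GRCr8, which matched 8 of the 10 genes, and give the 250 bases before the start of the gene. Ptges lies on the minus strand at chr3:34586988-34587237, and capitals mark the only GC box (GGGCGG, searched on both strands after the sequence was seen) in this stretch.
Ptges: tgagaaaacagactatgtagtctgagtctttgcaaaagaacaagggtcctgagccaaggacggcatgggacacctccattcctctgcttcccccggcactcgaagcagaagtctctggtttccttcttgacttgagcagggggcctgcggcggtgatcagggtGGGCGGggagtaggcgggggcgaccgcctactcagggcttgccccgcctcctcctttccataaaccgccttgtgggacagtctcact
Ptgs2 lies on the plus strand at chr13:64713813-64714062. Capitals mark the match to TNGCGTG, an extended form of the xenobiotic response element to which the aryl hydrocarbon receptor (AhR) binds. They also mark CACGTG, 1 stretch that reads the same on both strands. It therefore matches the hypoxia response core ACGTG once on each strand.
Ptgs2: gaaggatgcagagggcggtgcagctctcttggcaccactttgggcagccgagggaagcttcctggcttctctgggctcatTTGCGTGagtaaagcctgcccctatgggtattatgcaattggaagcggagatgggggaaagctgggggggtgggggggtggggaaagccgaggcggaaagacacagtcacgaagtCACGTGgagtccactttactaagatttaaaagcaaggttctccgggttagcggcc
The Ptgs2 stretch also holds 1 GGGCGG, left in lower case. Of all 33469 RefSeq promoters, 30.5% hold GGGCGG, 4.09% TNGCGTG and 16.6% ACGTG within the same 250 bases on either strand. In the whole window, which runs 50 bases past the start, TNGCGTG was found in 1 of the 8 promoters (4.89% of all promoters), its core GCGTG, which lies within it, in 3 (29.7%), ACGTG in 3 (19.3%), the TATA box TATAAA in 1 (14.2%) and the cyclic AMP response element TGACGTCA in 0 (1.83%). A match describes letters and is not a measured binding site.

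The samples were 4 groups of 3 libraries from Sprague-Dawley rats: normoxic lung of wild-type (WT) animals (day 0), WT lung under SuHx (day 4), lung labelled Ahr-KO under SuHx (day 4), and endothelial cells (ECs) from normoxic WT animals. SuHx joins the VEGF receptor inhibitor SU5416 (Sugen) with hypoxia and models pulmonary arterial hypertension. The ECs are labelled day 4, while their column names give 0. How the Ahr allele was made, how the ECs were isolated, and whether the libraries of a group are separate animals was not stated in the sources at hand. No Ahr-KO lung in normoxia was analysed here, so what SuHx does cannot be compared between the genotypes by an interaction.

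Each library held a signal total of 20567800 to 27052900, which stood for 20036900 to 28592800 reads. A signal is an estimated read count divided by 1 factor per library, so 1 read was worth 0.745 to 1.25. Ahr mRNA did not pass the test between the lungs labelled Ahr-KO and WT SuHx lung (limma log2 fold change 0.03 ± 0.26 SE, adjusted p = 0.966). The deleted part is not given, so this checks nothing about the label. Endothelial identity was checked with 10 markers (among them Pecam1, Cdh5 and Vwf): all 10 were higher in the ECs than in normoxia lung, and their summed signal was 263423 to 320777 against 92424 to 96996. Markers of leukocytes were measured in the ECs too. Of 10 neutrophil markers 6 were called higher than in normoxia lung and 0 lower, and they summed to 7890 to 10151 against 2409 to 5202. Of 9 mast cell markers 4 were called higher and 0 lower, but Kit, which endothelium can also express, made up most of their sum. The other 8 summed to 1044 to 1815 in the ECs against 849 to 1007 in normoxia lung. Of 10 tested monocyte and macrophage markers 2 were called higher (Cd14 and Itgam) and 4 lower (C1qa, C1qb, Lyz2 and the row that Csf1r shares with Pdgfrb). The 11 matched markers of that list summed to 60618 to 197425 in the ECs against 326931 to 478218 in normoxia lung, mostly from Lyz2, and without it to 11320 to 17485 against 15778 to 19030. In bulk RNA, fewer cells of a type and less RNA per cell cannot be told apart.

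Of the 10 genes, 2 were called higher and 0 lower in WT SuHx against WT normoxia lung, by limma at a Benjamini-Hochberg adjusted p under 0.05. Among all 15234 tested genes 7.08% were called higher and 6.39% lower. The same 2 genes, Ptges and Ptgis, were called higher in the lungs labelled Ahr-KO against WT normoxia (background 5.95% higher, 3.80% lower). Both comparisons share the normoxia libraries. Between the lungs labelled Ahr-KO and WT SuHx, 0 of the 10 genes were called by limma (background 0.499%, with 0.197% higher and 0.302% lower). ECs against normoxia lung gave 2 genes higher and 2 lower (background 26.1% and 30.1% of 15186 genes). Median log2 fold changes of the 10 genes were -0.01, -0.05, -0.09 and -0.03 in these 4 comparisons in the order given, beside -0.04, -0.03, 0.02 and -0.05 for all tested genes.

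**Figure D1:**
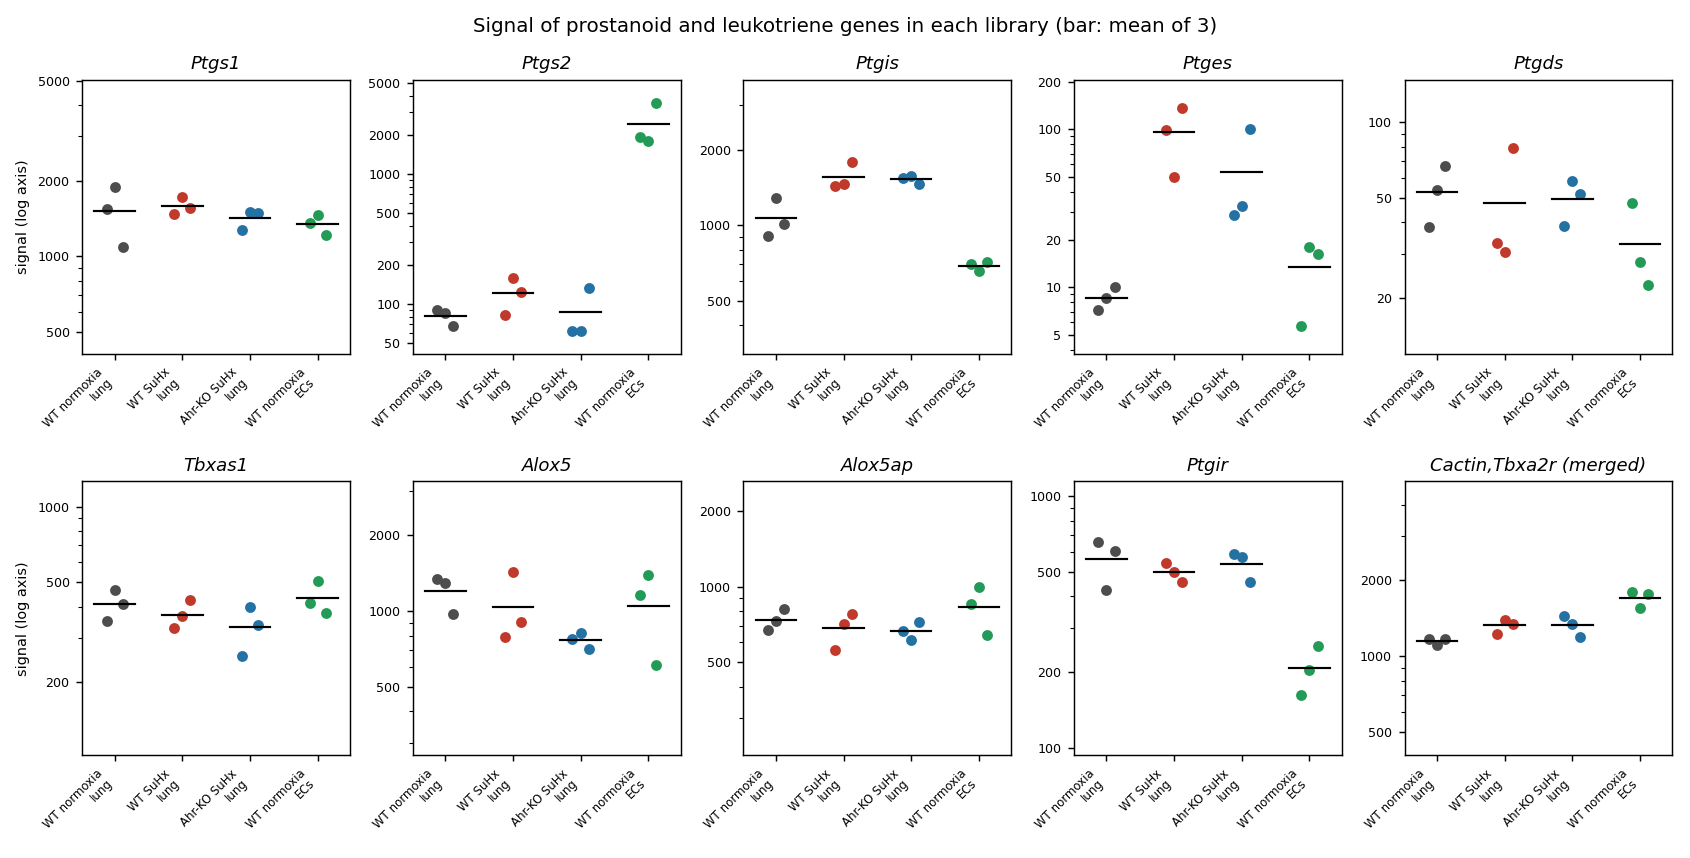
Signal (log axis) of each of the 10 genes in every library, with a point per library and a bar for the mean of 3, by group. Ptges is at 7.16 to 9.97 in normoxia lung and at 28.6 to 137 in the SuHx lungs of both genotypes, and Ptgs2 stands at 1802 to 3562 in the ECs.

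Ptgs1 encodes the constitutive cyclooxygenase, which supplies prostaglandin H2 in platelets, endothelium and many resting tissues. Its signal was 1549, 1895 and 1093 in normoxia lung, 1480.4, 1715 and 1560.1 in WT lungs under SuHx, 1275, 1507 and 1487 in the lungs labelled Ahr-KO, and 1353, 1460.5 and 1222 in the ECs. The 3 lung groups overlapped, and the ECs overlapped with normoxia lung and the lungs labelled Ahr-KO but lay just below all WT SuHx lungs. The normoxia lungs spread most, at 1512 ± 402 (SD, n = 3). The log2 fold change with SuHx in WT lung was 0.10 (95% interval -0.30 to 0.50, limma adjusted p = 0.723).

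Ptgs2 encodes the inducible cyclooxygenase, an early response gene. It was at 90.7, 86.1 and 68.3 in normoxia lung, 82.3, 159 and 124 in WT lungs under SuHx, and 62.6, 62.5 and 134 in the lungs labelled Ahr-KO. The lung groups overlapped, and 1 of the lungs labelled Ahr-KO stood at about the level of the higher WT SuHx lungs. The log2 fold change was 0.53 ± 0.34 with SuHx in WT lung (limma adjusted p = 0.314) and -0.54 ± 0.34 between the lungs labelled Ahr-KO and WT SuHx (95% interval -1.30 to 0.23, adjusted p = 0.503).

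The ECs held far more Ptgs2, at 1953, 1802 and 3562. Every EC library was above every lung library, and the difference from normoxia lung was 28.3-fold (log2 fold change 4.82 ± 0.27, limma adjusted p = 3.12e-05). Fos and Egr1, early response transcription factor genes named after their values were seen, were also higher in the ECs. Fos was at 33227 to 49766 in the ECs against 197 to 697 in normoxia lung, and Egr1 at 15273 to 35917 against 132 to 755. Among the EC libraries, replicate 2 had the highest Ptgs2 (3562) and the lowest Fos (33227) and Egr1 (15273). Whether these genes vary together in the ECs was not tested. The part of cell isolation in the Ptgs2 level was not tested, and isolation and cell type cannot be told apart here.

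Ptgis encodes prostacyclin synthase, a membrane-bound cytochrome P450 of endothelium, smooth muscle and fibroblasts. Its signal was 907, 1280.2 and 1010.0 in normoxia lung, 1438, 1455 and 1787 in WT lungs under SuHx, and 1549, 1565 and 1457 in the lungs labelled Ahr-KO. All SuHx lungs of both genotypes lay above all normoxia lungs, and the 2 SuHx groups overlapped. Ptgis was 1.47-fold higher under SuHx in WT lung (log2 fold change 0.56 ± 0.14, limma adjusted p = 0.0282) and in the lungs labelled Ahr-KO 1.44-fold above WT normoxia lung (0.53 ± 0.14, adjusted p = 0.0409).

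Both Ptgis calls lie near the threshold. The first was lost in 7 of 16 alternative settings, with adjusted p up to 0.101, and the second in 8 of 16, with adjusted p up to 0.140, while the fold stayed above 0 on the log2 scale in all of them (0.45 to 0.70 and 0.42 to 0.67). The WT call was lost without normoxia replicate 0 (log2 fold change 0.45, adjusted p = 0.101) or 2 (0.53, 0.0590) and without WT SuHx replicate 0 (0.61, 0.0622) or 2 (0.46, 0.0863). The Ahr-KO call was lost without normoxia replicate 0 (0.42, 0.140) or 2 (0.50, 0.0778) and without any 1 of its own replicates (0.51 to 0.56, 0.0813 to 0.127). The lungs labelled Ahr-KO differed from WT SuHx by a log2 fold change of -0.03, with a 95% interval from -0.33 to 0.28 (adjusted p = 0.944).

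In the ECs, Ptgis was lower than in any lung library, at 701, 656 and 716. The fall from normoxia lung was 1.53-fold (log2 fold change -0.61 ± 0.14, limma adjusted p = 0.00768). Marker sums of other cells that hold this enzyme are given beside it: the 9 smooth muscle and pericyte markers summed to 32976 to 42289 in normoxia lung, 51813 to 70974 in WT SuHx lung, 49106 to 70537 in the lungs labelled Ahr-KO and 22159 to 28140 in the ECs. For the 8 fibroblast markers the sums were 18743 to 30970, 42041 to 51008, 54491 to 70447 and 4659 to 7867 in the same order. Of the 9 smooth muscle and pericyte markers 4 were called higher with SuHx in WT lung (Acta2, Tagln, Cnn1 and Des) and 1 lower (Rgs5), and of the 8 fibroblast markers 4 were called higher (Col1a1, Lum, Dpt and Meox1) and 0 lower. Col1a1 carried most of the fibroblast rise in WT lung, and the other 7 summed to 13153 to 17163 in normoxia lung and 16736 to 20083 in WT SuHx lung, which overlap. In the lungs labelled Ahr-KO these 7 summed to 17825.4 to 25788.5, above all normoxia lungs. Without Myh11, the other 8 smooth muscle and pericyte markers summed to 25155.6 to 33058.8 in normoxia lung. They summed to 41556.3 to 52848.5 in WT SuHx lung and 39548.7 to 52542.1 in the lungs labelled Ahr-KO, both above all normoxia lungs. None of these markers was at 0 throughout a group, and their part in the Ptgis values was not tested.

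Ptges encodes the inducible microsomal synthase of prostaglandin E2, which works with Ptgs2 in inflammation. It was nearly silent in normoxia lung, at 7.16, 8.52 and 9.97, or 9, 10 and 13 reads. The WT SuHx lungs were at 99.3, 49.7 and 137, and the lungs labelled Ahr-KO at 28.6, 32.8 and 99.5. Every SuHx lung exceeded every normoxia lung, and the SuHx libraries differed widely among themselves. Ptges rose 9.37-fold under SuHx in WT lung (log2 fold change 3.23 ± 0.51, 95% interval 2.09 to 4.37, limma adjusted p = 0.00421), and this call held in all 16 alternative settings (adjusted p 0.00245 to 0.0232).

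In the lungs labelled Ahr-KO, Ptges was 4.91-fold above WT normoxia lung (log2 fold change 2.29 ± 0.51, limma adjusted p = 0.0221). This rested partly on single libraries. Without Ahr-KO replicate 2, the highest of its group, the log2 fold change was 1.74 (adjusted p = 0.0489), and the call was lost without normoxia replicate 0 (adjusted p = 0.0777) or 1 (0.0593). It was also lost without both normoxia replicate 2 and Ahr-KO replicate 2 (1.84, adjusted p = 0.0526). These 2 libraries had the highest cardiac marker sums, 11242 against 832 and 1618 in the other normoxia lungs and 24371 against 5527 and 6906 in the other lungs labelled Ahr-KO.

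The mean Ptges signal was 95.3 ± 43.8 in WT SuHx lung and 53.6 ± 39.8 in the lungs labelled Ahr-KO (SD, n = 3 each). Both ranges overlapped, and the difference was not called (log2 fold change -0.93 ± 0.51, 95% interval -2.07 to 0.21, limma adjusted p = 0.444). The interval covers a lower level as well as a slightly higher one in the lungs labelled Ahr-KO. Without Ahr-KO replicate 2 the log2 fold change became -1.49, and the call was still not made (adjusted p = 0.195).

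The ECs had little Ptges, at 5.69, 18.1 and 16.2, overlapping with normoxia lung (log2 fold change 0.46 ± 0.48, limma adjusted p = 0.454). Of 10 neutrophil markers, 2 were called higher with SuHx in WT lung (Il1r2 and Lcn2), 0 lower, and none was at 0 in a whole group. The 10 summed to 2409 to 5202 in normoxia lung, 9353 to 13777 in WT SuHx lung and 9004 to 13472 in the lungs labelled Ahr-KO. Lcn2, which epithelium can also express, carried most of the WT rise, and the other 9 overlapped between normoxia lung (1052 to 3401) and WT SuHx lung (2820 to 6315). In the lungs labelled Ahr-KO these 9 summed to 4219 to 6397, above all normoxia lungs. There, 4 of the 10 were called higher than in normoxia and 0 lower. The median log2 fold change of the 10 against normoxia was 1.47 in WT SuHx lung and 1.73 in the lungs labelled Ahr-KO. Below that WT median, the receptor genes Csf3r and Cxcr2 (in a row with Rufy4) had -0.16 ± 0.40 and -0.21 ± 0.37 in WT lung. Neither was called (limma adjusted p = 0.808 and 0.732). The part of neutrophils in the Ptges values was not tested.

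Over the 9 lung libraries, the genes whose log2 signal followed Ptges most closely were P4hb, which encodes protein disulfide isomerase (Pearson r = 0.988), the cell cycle kinase gene Cdk4 (r = 0.987) and the splicing factor gene Tra2b (r = 0.984). For Ptgis they were the carboxypeptidase gene Cpz (r = 0.972), the progranulin gene Grn (r = 0.971) and the merged row of Pmf1 and Slc25a44 (r = 0.969). These are the highest of all tested genes with a regular symbol, and the points share libraries and groups, so they are a description only.

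**Figure D2:**
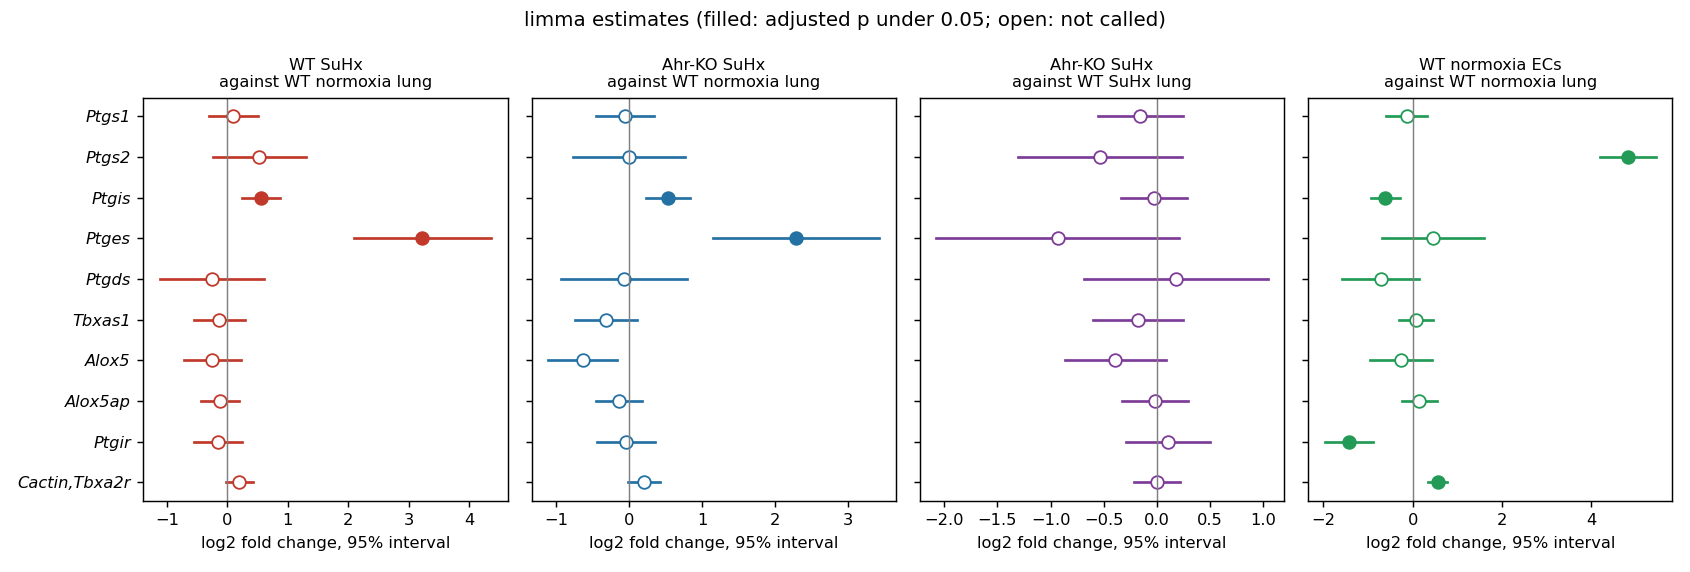
Log2 fold change of each gene (point) with its 95% interval (line) in the 4 comparisons, from limma on log2(signal + 1), with each panel on its own scale. Filled points passed an adjusted p under 0.05, and these are Ptgis and Ptges in both comparisons of SuHx with normoxia and Ptgs2, Ptgis, Ptgir and the Cactin,Tbxa2r row in the ECs.

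Ptgds encodes lipocalin-type prostaglandin D synthase. It was weakly detected, at 38.2, 53.7 and 66.7 in normoxia lung, 33.1, 30.6 and 78.9 in WT lungs under SuHx, 38.7, 58.4 and 51.7 in the lungs labelled Ahr-KO, and 47.8, 27.7 and 22.5 in the ECs. All groups overlapped and no comparison was called. With SuHx in WT lung the 95% interval of the log2 fold change ran from -1.11 to 0.61. A fall or a rise within that range remains possible.

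Tbxas1 encodes thromboxane synthase, which is found in platelets and macrophages. Its signal was 351, 467 and 409 in normoxia lung, 328, 366 and 423 in WT lungs under SuHx, 255, 400.5 and 339 in the lungs labelled Ahr-KO, and 414, 506 and 378 in the ECs. The 4 groups overlapped. The log2 fold change was -0.13 (95% interval -0.56 to 0.29, limma adjusted p = 0.655) with SuHx in WT lung and 0.08 (-0.30 to 0.46, adjusted p = 0.696) in the ECs against normoxia lung. Of 8 platelet markers 1 was called higher and 0 lower than in normoxia lung in each of the SuHx groups. In the ECs 1 was called higher and 2 lower. The 8 platelet markers summed to 4135 to 5293 in normoxia lung, 4247 to 7384 in WT SuHx lung, 4169 to 5672 in the lungs labelled Ahr-KO and 3815 to 4607 in the ECs, which overlap. The largest, Itga2b, shares its row with Gpatch8, and Gp1bb and Treml1 also lie in merged rows. Without Itga2b the other 7 summed to 1810 to 2700, 2417 to 5172, 2606 to 3397 and 1312 to 1713 in the same order. The lung groups overlapped with normoxia lung, and the ECs lay below it. Monocyte and macrophage sums (11 markers, mostly Lyz2) were 326931 to 478218, 199478 to 253975, 212662 to 320500 and 60618 to 197425 in the same order, with normoxia lung above the rest. Of the 10 tested, C1qa and C1qb were called higher with SuHx in WT lung and 0 were called lower. Without Lyz2 the sums were 15778 to 19030, 19145 to 19227, 15012 to 17899 and 11320 to 17485. The part of these cells in the Tbxas1 values was not tested.

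Alox5 encodes 5-lipoxygenase, the first enzyme of leukotriene synthesis. It was at 1347, 1299 and 979 in normoxia lung, 789, 1433 and 903 in WT lungs under SuHx, and 778, 817 and 709.7 in the lungs labelled Ahr-KO. The lungs labelled Ahr-KO were all below all normoxia lungs, whereas WT SuHx lungs overlapped with both. Against normoxia the log2 fold change in the lungs labelled Ahr-KO was -0.64 ± 0.21, which was not called (limma adjusted p = 0.0903). It was called when only these 2 groups were fitted (adjusted p = 0.0383). Against WT SuHx lung the log2 fold change was -0.39 (95% interval -0.86 to 0.08, adjusted p = 0.439).

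Alox5ap encodes the protein that presents arachidonic acid to 5-lipoxygenase. Its signal was 671, 733 and 811 in normoxia lung, 560.0, 707 and 779 in WT lungs under SuHx, 666, 614 and 722 in the lungs labelled Ahr-KO and 854, 998 and 644 in the ECs. These groups all overlapped. The log2 fold change with SuHx in WT lung was -0.12 (95% interval -0.43 to 0.19, limma adjusted p = 0.572). Alox5 in the ECs ranged from 613 to 1391 around a mean of 1053 ± 399 (SD, n = 3), overlapping with normoxia lung (adjusted p = 0.477). As both leukotriene genes are leukocyte genes, their signal in the ECs stands beside leukocyte markers. The neutrophil, mast cell, and monocyte and macrophage values are given above. Of 4 B cell markers 4 were called higher in the ECs than in normoxia lung and 0 lower. They summed to 4745 to 6192 in the ECs against 678 to 2217 in normoxia lung. Of 6 T and NK cell markers 2 were called higher and 2 lower. The lists differ in direction, and the part of leukocytes in the Alox5 and Alox5ap signal was not tested.

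Ptgir encodes the prostacyclin receptor, a receptor that raises cyclic AMP. It was at 657, 424 and 608 in normoxia lung, 542, 501 and 457 in WT lungs under SuHx, and 588, 575 and 457 in the lungs labelled Ahr-KO, and these groups overlapped. The log2 fold change with SuHx in WT lung was -0.15 (95% interval -0.55 to 0.25, limma adjusted p = 0.587). The ECs were lower, at 163, 205 and 255, with no overlap with any lung library. The fall from normoxia lung was 2.70-fold (log2 fold change -1.44 ± 0.23, adjusted p = 0.00158).

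Tbxa2r encodes the thromboxane receptor, and Cactin, in the same row, a nuclear protein linked to splicing. The row was at 1175, 1109.5 and 1171 in normoxia lung, 1229, 1398 and 1344 in WT lungs under SuHx, and 1449, 1344 and 1187 in the lungs labelled Ahr-KO. All SuHx lungs were above all normoxia lungs. The log2 fold change was 0.20 ± 0.10 in each comparison with normoxia, which was not called (limma adjusted p = 0.192 in WT and 0.229 in the lungs labelled Ahr-KO). In the ECs the row was higher, at 1799, 1548 and 1763, which is 1.48-fold above normoxia lung (log2 fold change 0.56 ± 0.09, adjusted p = 0.00161). Which of both genes carries these differences cannot be told apart.

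With SuHx in WT lung, 3 of the 10 genes had groups without overlap, all of them higher (Ptgis, Ptges and the Cactin,Tbxa2r row), where 36.7% of all tested genes had none (17.0% higher, 19.7% lower). The lungs labelled Ahr-KO against normoxia gave 4 of 10, the same rows higher and Alox5 lower (background 33.0%, with 15.1% higher and 17.9% lower). Against WT SuHx the number was 0 of 10 (background 21.9%, with 11.7% higher and 10.2% lower). In the ECs it was 4 of 10, with Ptgs2 and the Cactin,Tbxa2r row higher and Ptgis and Ptgir lower (background 65.5%, with 30.4% higher and 35.1% lower).

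Ratios of mRNA signals within a library restate the values above for pairs of genes, given here as a description without a test. The log2 ratio of Ptgis to Tbxas1 was 1.37, 1.45 and 1.30 in normoxia lung, 2.13, 1.99 and 2.08 in WT lungs under SuHx, and 2.60, 1.97 and 2.11 in the lungs labelled Ahr-KO. All 6 SuHx lungs exceeded all normoxia lungs, by 0.69 in the mean for WT and 0.85 for those labelled Ahr-KO. In the ECs it was lower, at 0.76, 0.37 and 0.92. The log2 ratio of Ptgir to the Cactin,Tbxa2r row overlapped among the lung groups (means -1.06, -1.41 and -1.30) and was lower in the ECs (-3.47, -2.92 and -2.79). The log2 ratio of Ptgs2 to Ptgs1 was -4.46 to -4.00 in normoxia and 0.30 to 1.54 in the ECs.

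**Figure D3:**
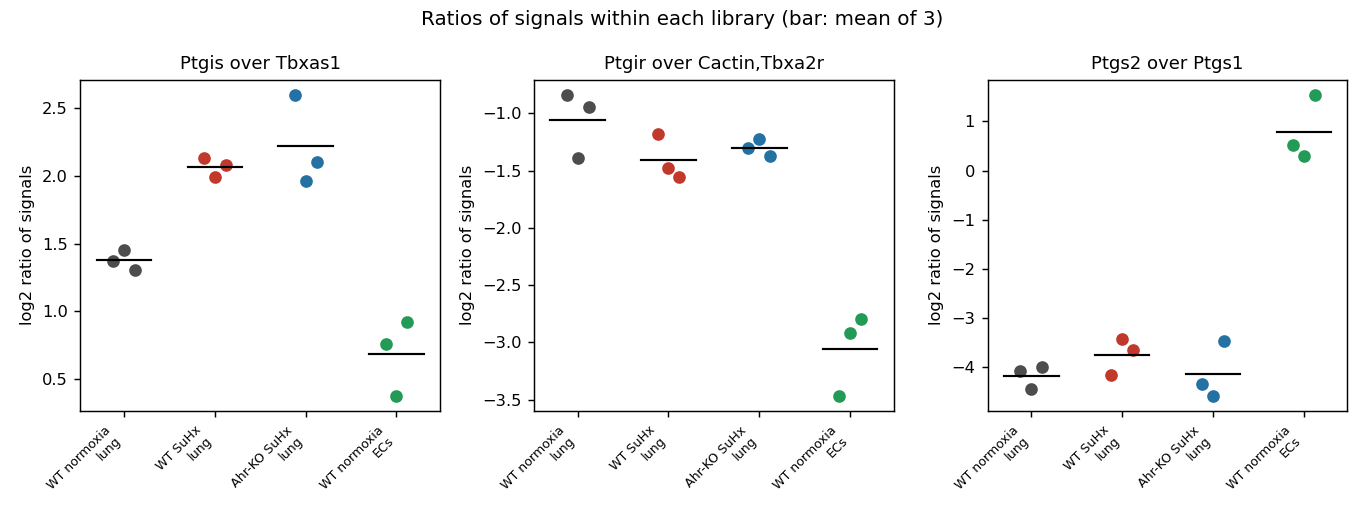
Log2 ratio of 2 signals within each library (points), with a bar for the mean of 3, by group. The ratio of Ptgis to Tbxas1 is at 1.97 or above in all SuHx lungs and at 1.45 or below in all normoxia lungs and ECs.

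Other genes of the pathway were followed through 47 symbols, covering arachidonic acid release, further synthases, receptors, transport, breakdown and other lipoxygenases. All 47 matched a row, 2 of them by a synonym. Of these, 44 were tested in the comparisons among lungs and 44 in the ECs. The sets differ, as Ptger1 was tested only among lungs and Ltb4r2 only in the ECs. With SuHx in WT lung 3 of the 44 were called higher and 1 lower, or 9.09% (background 13.5% of all genes). The lungs labelled Ahr-KO against WT normoxia gave 1 higher and 2 lower (background 9.75%), and against WT SuHx 0 of 44 (background 0.499%). In the ECs 10 were higher and 12 lower (background 56.2%).

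Hpgd, the dehydrogenase that starts the breakdown of prostaglandins E2 and F2α, was lower in every SuHx lung. Its signal was 2343, 1354 and 1193 in normoxia lung, 242, 394 and 420.0 in WT lungs under SuHx, and 462, 484 and 255 in the lungs labelled Ahr-KO. Hpgd fell 4.54-fold under SuHx in WT lung (log2 fold change -2.18 ± 0.33, limma adjusted p = 0.00344) and stood 4.04-fold below normoxia in the lungs labelled Ahr-KO (-2.02 ± 0.33, adjusted p = 0.00518). Both calls held in all 16 alternative settings. Both SuHx groups overlapped (log2 fold change 0.17, 95% interval -0.57 to 0.91, adjusted p = 0.842). The ECs, at 1553, 1536 and 1595, were within the range of normoxia lung.

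Slco2a1 encodes the transporter that takes prostaglandins into cells for breakdown. It was at 27615, 39484 and 25169 in normoxia lung, 24348, 23935 and 19207 in WT lungs under SuHx, 19575, 17878 and 14768 in the lungs labelled Ahr-KO, and 81130, 80572 and 83074 in the ECs. In the lungs labelled Ahr-KO it was 1.74-fold below normoxia (log2 fold change -0.80 ± 0.20, limma adjusted p = 0.0347), a call that was lost in 8 of 16 alternative settings (adjusted p up to 0.103), among them leaving out normoxia replicate 0 or 1 or any 1 of the lungs labelled Ahr-KO. WT SuHx against normoxia was not called (-0.43 ± 0.20, adjusted p = 0.170), nor was the difference between both SuHx groups (-0.37, 95% interval -0.82 to 0.07, adjusted p = 0.439). The ECs were 2.70-fold above normoxia lung (adjusted p = 0.00108). The 10 endothelial markers summed to 77389 to 81476 in WT SuHx lung and 69300 to 87178 in the lungs labelled Ahr-KO, both below normoxia lung. Of the 10, 3 were called lower and 0 higher in each (Tek, Erg and Car4 in WT, and Tek, Kdr and Car4 in the lungs labelled Ahr-KO). Their part in the Slco2a1 values was not tested.

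Alox15 encodes 12/15-lipoxygenase and shares its row with Pelp1, a nuclear receptor coregulator gene. The row was at 1749, 2003 and 1576 in normoxia lung, 7662, 14932 and 9863 in WT lungs under SuHx, and 3983, 2996 and 7641 in the lungs labelled Ahr-KO. All groups of lungs stood apart from each other, but the lowest WT SuHx lung (7662) was barely above the highest lung labelled Ahr-KO (7641). Between these 2 groups 21.9% of all tested genes had no overlap. Which of Alox15 and Pelp1 carries the differences cannot be told apart. The rise with SuHx in WT lung was 5.89-fold (log2 fold change 2.56 ± 0.33, limma adjusted p = 0.00172) and held in all 16 alternative settings, whereas that of the lungs labelled Ahr-KO over normoxia (2.55-fold, adjusted p = 0.0336) was lost in 7 of 16 (adjusted p up to 0.109). These included leaving out Ahr-KO replicate 2 (log2 fold change 0.97, adjusted p = 0.0683) or 0 (1.44, 0.0644), and any 1 normoxia lung (1.27 to 1.44, 0.0672 to 0.0982). Between the lungs labelled Ahr-KO and WT SuHx the log2 fold change was -1.21 (95% interval -1.95 to -0.47), which was not called over all genes (limma adjusted p = 0.168).

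Hpgds, the haematopoietic prostaglandin D synthase gene, was at 216, 123 and 145 in normoxia lung, 316, 339 and 279.9 in WT lungs under SuHx and 167, 197 and 257 in the lungs labelled Ahr-KO. It was 1.97-fold higher with SuHx in WT lung (limma adjusted p = 0.0252), a call lost in 5 of 16 alternative settings, namely without any 1 of the WT SuHx lungs or without normoxia replicate 1 or 2 (adjusted p up to 0.0805). The merged row of Akr1b8, Akr1b7 and Akr1b10, aldo-keto reductase genes, was 3.01-fold higher with SuHx in WT lung (adjusted p = 0.0339), a call lost in 7 of 16 (adjusted p up to 0.103), among them leaving out WT SuHx or normoxia replicate 0 or 1. Neither was called between the lungs labelled Ahr-KO and WT SuHx (Hpgds -0.61 ± 0.23, adjusted p = 0.301; Akr1b8 row -0.63 ± 0.41, adjusted p = 0.507).

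**Figure D4:**
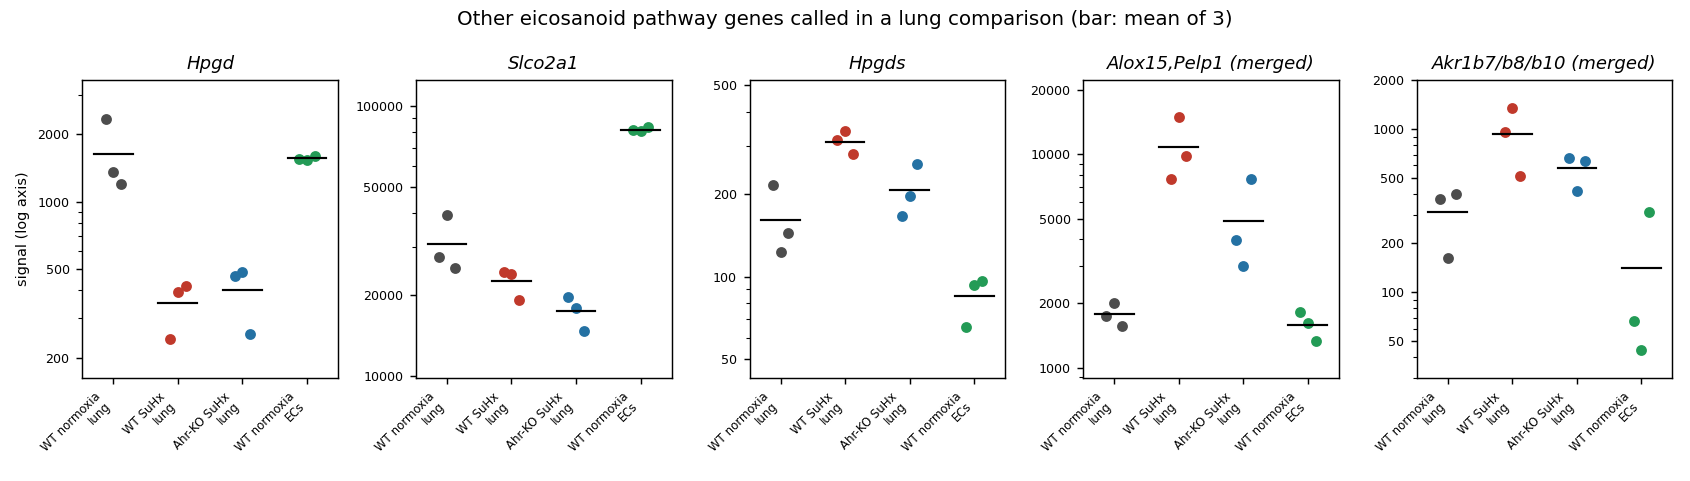
Signal (log axis) of the other pathway genes that were called in a lung comparison, with a point per library and a bar for the mean of 3, by group. Hpgd is at 1193 or above in all normoxia lungs and at 484 or below in all SuHx lungs, and the Alox15,Pelp1 row is highest in WT lungs under SuHx.

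In the ECs, the 6 other pathway genes with the smallest adjusted p against normoxia lung were of breakdown, leukotriene metabolism and receptors. The prostaglandin reductase gene Ptgr1 was 5.74-fold lower (limma adjusted p = 6.30e-05), and Dpep1, a dipeptidase gene that cleaves leukotriene D4, 6.55-fold lower (7.43e-05). The cysteinyl leukotriene receptor genes Cysltr2 (4.71-fold lower, adjusted p = 0.000209) and Cysltr1 (2.77-fold lower, 0.000531) and the prostaglandin F receptor gene Ptgfr (12.3-fold lower, 0.000699) were below normoxia lung. The merged row of Dpep2 and Dpep3 was 1.83-fold higher (adjusted p = 0.000290). For Ptgfr the ECs were at 7.97, 4.82 and 17.5 against 149.6, 81.8 and 143 in normoxia lung.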

How the data were processed

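RNA sequencing of 12 libraries was deposited by the authors as 1 table of 19230 rows, of which 1046 name several genes. The deposited values are a signal, judged from the numbers to be estimated counts over a library factor, since low values step evenly. Only 80.9% to 81.8% of nonzero values came within 0.05 of whole reads, so no count test was run. Build rn6 and FastQC are named per the submitters' processing notes; aligner, counter, normalization and strand were not stated in what was at hand. Columns were tied to groups by name, not to single samples, and libraries are named by group and column suffix (0 to 2). P-values measure the spread between libraries, which may be technical.

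The test was limma (version 3.58.1, R 4.3.3) on log2(signal + 1), for rows whose signal averaged 1 or more (trended eBayes, two-sided, Benjamini-Hochberg over all tested genes, called under 0.05). The 9 lung libraries made 1 fit, and the ECs and normoxia lungs another. A fold change is on the scale of signal + 1, which understates changes of low genes. The procedure was checked on simulated data with known changes. The members and lists were chosen with earlier results of these data known. Named were all members, other pathway genes called in a lung comparison or among the 6 smallest adjusted p in the ECs, and, for each member called in lung, the 3 genes with the highest correlation, unnamed loci and mitochondrial genes left out. Marker lists are given by calls, by summed signal and, added after their values were seen, by the sum without the largest gene. Alternatives were limma without trend, quantile or median-of-ratios scaling, the filter dropped or raised to 5, a pseudocount of 0.1, all 12 libraries or only 2 groups in the fit, the suffix as a replicate block, each library left out, and normoxia 2 with Ahr-KO 2 left out.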

Additional observations from a re-analysis of the deposited data

How the results depend on the processing

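Of the 10 genes, the number called with SuHx in WT lung was 2, and it was 1 without limma's trend, with only the 2 groups in the fit, and without normoxia replicate 2 and Ahr-KO replicate 2, and 1 to 2 with single libraries left out. In the lungs labelled Ahr-KO against WT normoxia it was 2, and 1 without the trend, 3 with the block, 0 without normoxia replicate 2 and Ahr-KO replicate 2, and 0 to 1 with single libraries left out. In each setting that lost a call, Ptgis was among the lost except without normoxia replicate 1 for the lungs labelled Ahr-KO, where Ptges was. The counts for the lungs labelled Ahr-KO against WT SuHx (0) and for the ECs (4) did not move in any setting run. Over all genes the number called ranged from 862 to 3385 in WT SuHx against normoxia (2052 as reported), 721 to 2171 in the lungs labelled Ahr-KO against normoxia (1485), 32 to 126 between both SuHx groups (76) and 7239 to 8753 in the ECs (8539). With the replicate number as a block, Alox5 passed in the lungs labelled Ahr-KO against normoxia (adjusted p = 0.0450), which made 3 of 10, and the count of all genes with SuHx in WT lung was 3385. The block changed no other call of the 10 genes. Deviations of same-numbered libraries correlated at -0.0384 to 0.215, which does not settle whether they pair. Every library correlated best with its own number only in the lungs labelled Ahr-KO against normoxia, a hint from the data and not the design. Number 2 did so in all 4 comparisons, number 1 in all but Ahr-KO against WT SuHx, and number 0 only in Ahr-KO against normoxia. The cause of these changes was not tested. Depth limits Ptges in normoxia, where 9 to 13 reads were counted.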
